A study of Caenorhabditis elegans with 8 samples.

Results

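Magnolol and honokiol are phenolic compounds of Magnolia bark and positional isomers: both are biphenols with the same allyl and hydroxyl groups, set at different positions of the joined rings. The comparison described here asks how the transcripts of whole Caenorhabditis elegans, a free-living nematode, differed between worms given one isomer and worms given the other when dose and duration were equal. It uses 5 of the 8 RNA-seq libraries of the study: magnolol 1 to 3 (200 µM, 1 h) and honokiol 1 and 2 (200 µM, 1 h), across all 21309 rows of the deposited count table. The other 3 libraries came from worms given DMSO, the solvent control. They entered the estimate of spread and show where the untreated level lay. The labels name no strain, stage or number of worms, and do not say that replicates were separate cultures. A p-value here thus sets a difference only against the scatter of these 8 libraries, controls included, and that scatter may be technical. This is 1 pair of compounds at 1 dose and 1 time, with 3 libraries against 2.

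Animals clear foreign small molecules in stages. Cytochrome P450 enzymes oxidise them, UDP-glucuronosyltransferases and glutathione S-transferases attach a sugar or glutathione, and ABC transporters pump substrates and products out of cells. In C. elegans much of this work is done in the intestine, and many of the genes are switched on through nuclear hormone receptors when a foreign compound enters. A separate programme, driven by the transcription factor HSF-1, raises heat shock proteins, the chaperones that bind misfolded proteins in the cytosol.

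The 8 libraries held 30274330 to 35888186 counts each. Magnolol 2 stood apart from the other magnolol libraries, and honokiol 2 lay farther than honokiol 1 from every library of the other groups. The chi-square per degree of freedom over genes was 41.2 and 32.3 between magnolol 2 and magnolol 1 and 3, against 8.41 between those 2, and 29.5 between the honokiol libraries. Control 3 stood apart from controls 1 and 2 too (32.4 and 36.6, against 11.7 between those 2). No pair was as close as counting noise. The spread had a direction with transcript length, the lower values of honokiol 2 and the higher values of magnolol 2 falling on long genes, and this trend ran between the isomer groups too. Summed levels of body wall muscle markers were 8501 and 6160 CPM (counts scaled to a common library size) with honokiol, 8677, 13676 and 9878 CPM with magnolol, and 8451 to 9536 CPM in the controls. The sums for intestine ran from 3497 to 4316 CPM with honokiol, from 4187 to 5218 CPM with magnolol and from 3940 to 4508 CPM in the controls. No marker of intestine, muscle, pharynx, neurons, germline, oocytes or sperm was called in edgeR (DESeq2 called 1 oocyte marker and limma-voom 0, and 13 in these lists had an unadjusted p under 0.05 toward magnolol and 1 toward honokiol), and 1 of 8 epidermis markers was (mlt-10, 0.65 ± 0.12, edgeR adjusted p = 0.00845, and 0.182 without honokiol 2). Over all 16813 rows tested, 1504 had an unadjusted p under 0.05 toward magnolol and 1195 toward honokiol. The part of the marker sums in the results was not tested. In whole animals, fewer cells of a type and less RNA per cell cannot be told apart.

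Heat shock genes of the cytosol were higher with magnolol, and genes of drug metabolism, above all P450s of the cyp-35 group and UDP-glucuronosyltransferases, were higher with honokiol. Of 16813 rows with enough counts to test, 257 were called (1.53%), that is, had an adjusted p under 0.05 by Benjamini-Hochberg in the quasi-likelihood test of edgeR, two-sided. Of these, 48 (0.285%) were higher with magnolol and 209 (1.24%) were higher with honokiol. The difference reached 2-fold in 17 (0.101%) and 98 (0.583%) of them and 4-fold in 9 and 25. Differences are given on the log2 scale as magnolol minus honokiol ± SE, so that a negative value stands for a higher level with honokiol. The median was 0.73 among the rows higher with magnolol, -0.93 among those higher with honokiol, and -0.01 over all rows tested, with quartiles of -0.20 and 0.18.

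**Figure D1:**
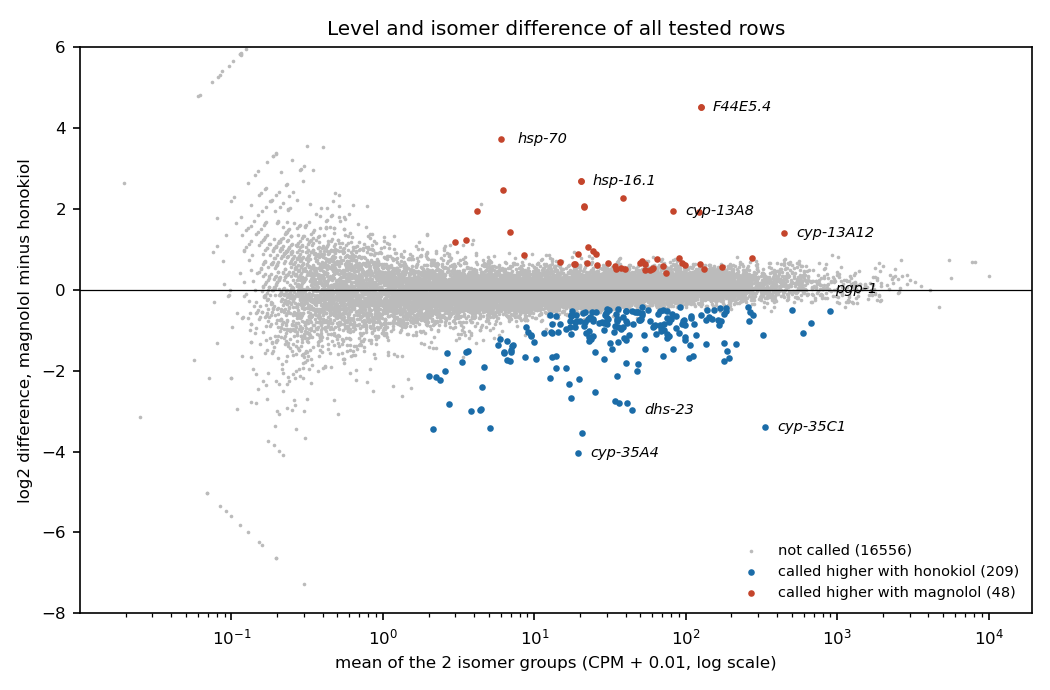
Every tested row by its mean level in the isomer groups (x axis, CPM + 0.01, log scale) and its fitted log2 difference, magnolol minus honokiol (y axis), with rows called higher with magnolol in red, rows called higher with honokiol in blue and rows not called in grey. The 48 red points are fewer than the 209 blue points, pgp-1 lies at 0 among the highest levels, and 15 rows with few counts lie outside the axis of -8 to 6.

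These counts changed in size with single libraries. Leaving out honokiol 2 left 15 rows higher with magnolol and 112 higher with honokiol, while leaving out honokiol 1 gave 321 and 253. Without magnolol 2 the counts were 21 and 160, without magnolol 3 they were 21 and 141, without magnolol 1 they were 86 and 187, and without control 3 they were 81 and 249. With both magnolol 2 and honokiol 2 left out, a setting chosen after the data were seen, 13 and 78 rows were called, 12 and 77 of them among the 257. Among the 257 rows none changed sign in any of these fits that leave out libraries. The split also depended on the tool: 50.4% of the calls of DESeq2 were higher with honokiol, against 81.3% in edgeR.

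The control libraries show on which side of the untreated level the isomers parted. Of the 209 rows higher with honokiol, 126 had all control libraries below all libraries of both isomers. For another 61 the control range overlapped magnolol and lay below honokiol. In 11 it lay between the isomers, in 10 it overlapped honokiol and lay above magnolol, and in 1, F26G1.2, it lay above both (a call lost without honokiol 2, magnolol 1 or magnolol 2, edgeR adjusted p = 0.301, 0.0596 and 0.0731). The 48 rows higher with magnolol were divided otherwise: in 16 the controls overlapped honokiol and lay below magnolol, in 15 they overlapped magnolol and lay above honokiol, in 10 they lay between, in 6 below both and in 1, cut-2, across both. The call of cut-2 was lost without control 2, honokiol 2, magnolol 2 or magnolol 3 (edgeR adjusted p = 0.0642, 0.554, 0.105 and 0.160). Both isomers were compared with the same controls, so these positions are a description and not 2 separate results. They are given for called rows only, without their share over all rows tested. Rows picked for a high level with 1 isomer more readily have controls below that isomer.

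Inducible chaperones of the HSP70 family showed the widest gap in favour of magnolol. The transcript of F44E5.4, on row gene8423, stood at 221, 260.4 and 238.7 CPM in magnolol 1 to 3, 11.96 and 9.11 CPM in honokiol 1 and 2 and 7.30, 22.2 and 4.002 CPM in controls 1 to 3. All magnolol libraries were far above all others, and the honokiol libraries lay inside the wide control range. The difference was 4.51 ± 0.49, or 22.8-fold, with edgeR adjusted p = 6.95e-05. A second row with that symbol, gene8424, had nearly the same counts (4.52 ± 0.48). The annotation of WBcel235 places F44E5.4 on chromosome II at 11757107 to 11759311, next to the oppositely oriented F44E5.5 at 11759662 to 11761861, and both rows may hold reads of this pair.

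The transcript of hsp-70, another inducible HSP70, was rarer, with 10.1, 12.04 and 11.3 CPM in magnolol 1 to 3, 0.742 and 0.950 CPM in honokiol 1 and 2 and 0.905, 0.625 and 1.62 CPM in controls 1 to 3. Honokiol and control overlapped near 1 CPM, and the magnolol libraries were close to each other and far higher. This was a difference of 3.71 ± 0.34 (edgeR adjusted p = 1.15e-05).

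Small heat shock proteins of the HSP-16 group, which hold unfolding proteins in solution, followed the same order. For hsp-16.1 (row gene35931) the levels were 36.6, 35.5 and 33.2 CPM in magnolol 1 to 3, 5.64 and 5.28 CPM in honokiol 1 and 2 and 3.62, 5.92 and 6.28 CPM in controls 1 to 3. The magnolol libraries again stood clear of both other groups, which overlapped. The difference was 2.68 ± 0.20, or 6.43-fold, with edgeR adjusted p = 1.38e-06. For hsp-16.48 (row gene35932) the levels were 32.5, 35.04 and 34.6 CPM in magnolol 1 to 3, 6.41 and 9.97 CPM in honokiol 1 and 2 and 7.42, 7.85 and 7.94 CPM in controls 1 to 3, a difference of 2.06 ± 0.17 with edgeR adjusted p = 4.41e-06. Each of these symbols stands on 2 rows with nearly equal counts, and the genome holds 2 copies of each gene side by side on chromosome V (9087293 to 9090604), so that the copies are uncertain as separate genes.

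At the other HSP-16 locus on chromosome V, hsp-16.41 (1805178 to 1805875) was at 4.95, 6.50 and 8.37 CPM in magnolol 1 to 3, 1.63 and 1.81 CPM in honokiol 1 and 2 and 0.584, 1.55 and 1.16 CPM in controls 1 to 3. Its difference of 1.94 ± 0.35 had edgeR adjusted p = 0.00839, but 0.104 without honokiol 2 and 0.0625 without magnolol 3. The magnolol libraries were all higher than the other 5, at levels spread more widely than for its relatives.

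In the whole cytosolic heat shock list 8 of 13 rows, standing for 5 symbols, were called toward magnolol and 0 toward honokiol, against 0.285% and 1.24% of all rows tested. At an unadjusted p under 0.05, and in DESeq2 and limma-voom, 0 were higher with honokiol as well. The median difference of the 13 rows was 2.06, against -0.01 over all rows, and the differences ran from -0.44 to 4.52. These rows stand for only 10 symbols, and F44E5.4, hsp-16.1 and hsp-16.48 each enter the median through paired, near-equal rows, which raises it. The rows not called were hsp-17, hsp-43, hsp-12.3, hsp-12.6 and F08H9.3. Of these hsp-17 was at 0.31 ± 0.13 and hsp-12.3 at -0.29 ± 0.20. With magnolol 2 and honokiol 2 left out 7 rows were called.

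Chaperones that every cell makes at high level did not pass the test. None of 18 constitutive chaperone rows was called in edgeR, though at an unadjusted p under 0.05 7 were higher with magnolol and 1 higher with honokiol and DESeq2 called 2 and limma-voom 1 toward magnolol, and the 95% interval of every one lay within 2-fold. For hsp-90 the difference was 0.15 ± 0.11, with an interval of -0.09 to 0.39. For hsp-110, which helps HSP70 release its client, it was 0.63 ± 0.15 (edgeR adjusted p = 0.0575), a value called by DESeq2 and limma-voom (0.00191 and 0.0271) and without honokiol 1 or magnolol 1 (0.0173 and 0.0327). The call of hsp-110 was also made with no low-count filter (edgeR adjusted p = 0.00918) and with a stricter filter (0.0462). After a correction for exon length its difference was 0.48 (edgeR adjusted p = 0.0405). For hsp-1, the constitutive HSP70, the levels were 2478, 3373 and 2587 CPM in magnolol 1 to 3, 2409 and 1525 CPM in honokiol 1 and 2 and 2243, 2094 and 2304 CPM in controls 1 to 3. Its difference of 0.52 ± 0.18 was not called in edgeR (adjusted p = 0.175), but it was in DESeq2 (0.0485) and without honokiol 1 (0.0159). The low value of hsp-1 was that of honokiol 2 and the high value that of magnolol 2.

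Other compartments of protein folding gave no edgeR call, and DESeq2 called 1 and limma-voom 0 of these genes. At an unadjusted p under 0.05, 4 and 3 genes of the endoplasmic reticulum and mitochondrial lists were higher with magnolol and 1 and 0 higher with honokiol. Among 19 genes of the unfolded protein response of the endoplasmic reticulum, its reporter hsp-4 was at 0.06 ± 0.11 (95% interval -0.18 to 0.30). Among 14 of the mitochondrial response, hsp-6 was at 0.46 ± 0.16 and hsp-60 at 0.33 ± 0.13, and both were called without honokiol 1 (edgeR adjusted p = 0.0135 and 0.0491). The transcript of hsf-1 itself differed by 0.18 ± 0.11, with an interval of -0.05 to 0.41.

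**Figure D2:**
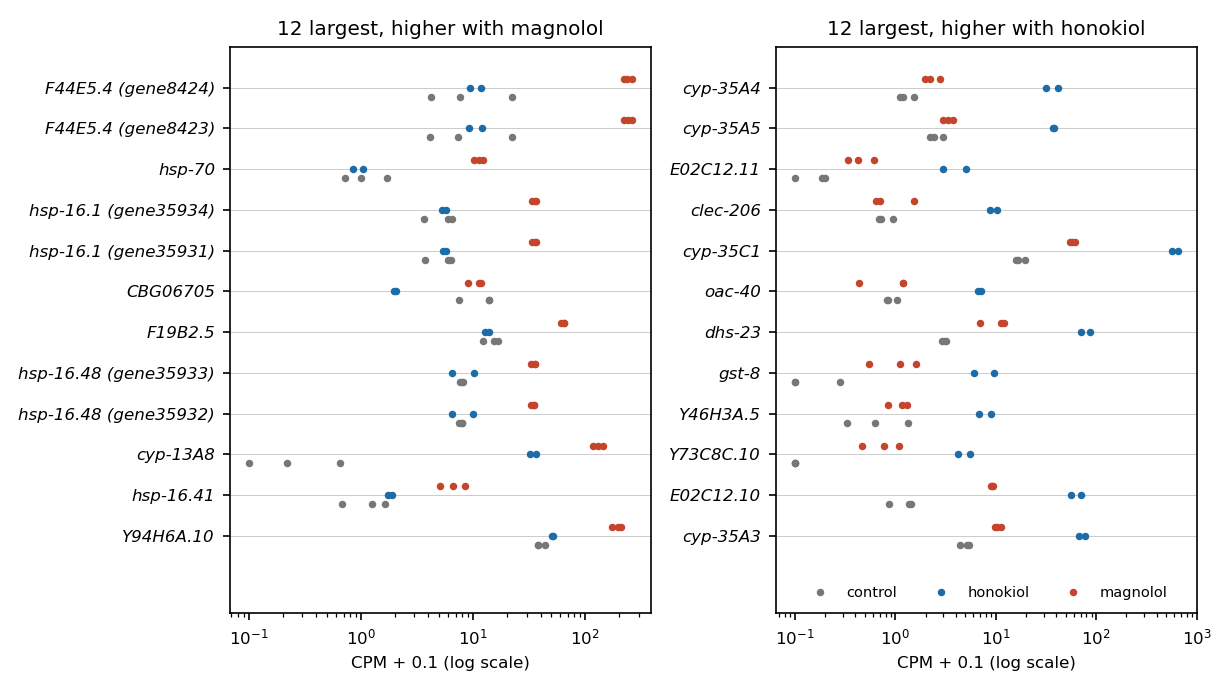
Level of each library (points, CPM + 0.1, log scale) for the 12 largest called differences in either direction, with control in grey, honokiol in blue and magnolol in red. In the left panel the red points lie to the right of the blue ones, at higher CPM, in every row, and the grey points mostly share the CPM range of the blue. In the right panel the blue points lie to the right of the red ones in every row.

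Of 73 tested P450 genes 22 were higher with honokiol, 2 were higher with magnolol and 49 were not called. The 22 are 30.1% of the family, against 1.24% of all rows tested, and the family median was -0.41. With magnolol 2 and honokiol 2 left out 12 and 1 members were called, and without honokiol 2 alone 14 and 2. In 18 of the 22 all control libraries lay below both isomers, and in 4 they overlapped magnolol. Among all 209 rows called higher with honokiol these positions held for 126 and 61. Among members that were not called, 32 had a 95% interval within 2-fold and 17 a wider one.

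The cyp-35 genes, of which cyp-35A2 is a much used reporter of exposure to foreign compounds, held the largest differences. On chromosome V, cyp-35A4 (4031619 to 4033446) was at 31.9 and 41.5 CPM in honokiol 1 and 2, 1.88, 2.09 and 2.71 CPM in magnolol 1 to 3 and 1.43, 1.101 and 1.03 CPM in controls 1 to 3. The magnolol libraries lay slightly above the controls, and the honokiol libraries far above all others. The difference was -4.04 ± 0.20, or 16.405-fold, with edgeR adjusted p = 1.90e-08. Its neighbour cyp-35A3 (4022609 to 4024482) was at 67.1 and 76.8 CPM in honokiol 1 and 2, 10.204, 11.1 and 9.81 CPM in magnolol 1 to 3 and 4.29, 5.32 and 5.13 CPM in controls 1 to 3, a difference of -2.79 ± 0.13.

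Elsewhere on chromosome V, cyp-35A5 (3936326 to 3938597) was at 37.4 and 38.2 CPM in honokiol 1 and 2, 2.86, 3.64 and 3.25 CPM in magnolol 1 to 3 and 2.89, 2.32 and 2.12 CPM in controls 1 to 3. Magnolol lay just above the control range, or inside it for 1 library, and the difference between isomers was -3.54 ± 0.16. The most abundant of the group was cyp-35C1 (13896663 to 13898487), at 566 and 651 CPM in honokiol 1 and 2, 55.0, 57.1 and 61.3 CPM in magnolol 1 to 3 and 19.6, 16.7 and 15.7 CPM in controls 1 to 3. Here magnolol was itself well above control (1.74 ± 0.11) and honokiol higher still (5.13 ± 0.13). The isomer difference was -3.40 ± 0.12, or 10.5-fold, with edgeR adjusted p = 6.75e-10.

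For cyp-35A2 (7362319 to 7364182) the levels were 275 and 317 CPM in honokiol 1 and 2, 95.03, 89.9 and 89.3 CPM in magnolol 1 to 3 and 48.1, 44.4 and 47.1 CPM in controls 1 to 3. The groups did not overlap and stood in the order control, magnolol, honokiol, with an isomer difference of -1.70 ± 0.10 (edgeR adjusted p = 1.58e-07). The other members were at lower levels. The transcript of cyp-35B2 was at 6.92 and 8.22 CPM in honokiol 1 and 2, 0.925, 1.42 and 1.92 CPM in magnolol 1 to 3 and 2.31, 2.94 and 1.49 CPM in controls 1 to 3, a called difference of -2.41 ± 0.32. That of cyp-35B1 stood at 6.23 and 9.73 CPM in honokiol 1 and 2, 3.82, 4.70 and 2.49 CPM in magnolol 1 to 3 and 3.82, 4.43 and 4.56 CPM in controls 1 to 3, and its difference of -1.12 ± 0.26 lay at the threshold in edgeR (adjusted p = 0.0504), inside it in DESeq2 (0.0105). For cyp-35A1, at most 2.08 CPM in any library, no difference was detectable at this depth (95% interval -4.40 to 0.47). In all, 4 of 5 cyp-35A genes were called, with a median of -2.79, and 1 of 3 cyp-35B genes (2 in DESeq2, without honokiol 1 or without magnolol 2). The single cyp-35D gene, cyp-35D1, was not called and was at 0.42 ± 0.51 (95% interval -0.67 to 1.51).

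The cyp-13A genes, a tandem group on chromosome II with relatives elsewhere, went both ways. Higher with honokiol was cyp-13A4 (9795756 to 9797740), at 151 and 170.2 CPM in honokiol 1 and 2, 45.1, 57.5 and 47.6 CPM in magnolol 1 to 3 and 1.96, 2.68 and 2.25 CPM in controls 1 to 3. Both isomers were far above the controls, and all honokiol libraries were above all magnolol libraries, a difference of -1.68 ± 0.12 (edgeR adjusted p = 1.04e-06). Its neighbour cyp-13A5 (9798277 to 9800362), named after its values were seen, reached 823 and 878 CPM in honokiol 1 and 2 and 441, 524 and 481 CPM in magnolol 1 to 3, with a smaller difference of -0.82 ± 0.12.

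In the same tandem group, cyp-13A8 (9805600 to 9807569) had the opposite order. It was at 118, 143 and 130.2 CPM in magnolol 1 to 3, 35.9 and 31.8 CPM in honokiol 1 and 2 and 0.555, 0.119 and 0 CPM in controls 1 to 3. From a control level of under 1 CPM both isomers were high, magnolol more so, with a difference of 1.94 ± 0.22 or 3.85-fold (edgeR adjusted p = 8.18e-05). On chromosome III, cyp-13A12 (13024547 to 13028017) was likewise higher with magnolol, at 592, 718 and 640.4 CPM in magnolol 1 to 3, 231 and 261 CPM in honokiol 1 and 2 and 3.85, 1.52 and 1.32 CPM in controls 1 to 3. That difference was 1.40 ± 0.23, with edgeR adjusted p = 0.00375. In DESeq2 neither was called (adjusted p = 0.307 and 0.0985), though both kept their direction. Among the 5 isomer libraries no magnolol value overlapped a honokiol value for either gene. That held for all 48 rows called higher with magnolol, so it does not weigh against the DESeq2 result.

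Adjoining cyp-13A8 on chromosome II, cyp-13A7 (9803620 to 9805513) was at 54.5 and 63.0 CPM in honokiol 1 and 2, 30.6, 41.3 and 36.8 CPM in magnolol 1 to 3 and 0.526, 0.476 and 0.0661 CPM in controls 1 to 3. Its difference of -0.70 ± 0.19 was not called in edgeR (adjusted p = 0.0895), but was in limma-voom (0.00730) and without control 3 (0.00984). Over the group, 5 of 11 cyp-13A genes were called higher with honokiol and 2 higher with magnolol. The count of 5 was 2 without honokiol 2 and 3 without magnolol 1 or magnolol 3, and DESeq2 called 4 and 0. These genes are close paralogs, and the labels do not say how reads matching more than 1 of them were counted, which leaves each single value uncertain.

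P450 calls were also found in the cyp-34A group (4 of 8 genes), the cyp-14A group (2 of 5) and singly in 5 further groups (cyp-13B, cyp-25A, cyp-29A, cyp-33C and cyp-33D), all higher with honokiol. Without honokiol 2 the cyp-34A group kept 2 calls, as it did without magnolol 3, and the single calls of cyp-25A, cyp-33C and cyp-33D were lost. Without magnolol 3 those of cyp-33C and cyp-33D were lost, and without magnolol 2 that of cyp-33D. Named after its values were seen, cyp-13B1 on chromosome X stood at 29.4 and 35.1 CPM in honokiol 1 and 2, 8.92, 5.80 and 6.31 CPM in magnolol 1 to 3 and 2.63, 5.53 and 3.17 CPM in controls 1 to 3, a difference of -2.20 ± 0.24. The gap between isomers ran from 1.52-fold to 16.405-fold, that of cyp-35A4, among the P450 calls higher with honokiol. Groups without a call included cyp-31A, cyp-33E and the single genes of cyp-37, cyp-42, cyp-43 and cyp-44. The redox partner of microsomal P450s, emb-8, was at 509 and 495 CPM in honokiol 1 and 2 and 401, 505 and 443 CPM in magnolol 1 to 3, a difference of -0.16 ± 0.12 with an interval of -0.41 to 0.09. An added locus that the table gives the symbol cyp-33C7 is not counted in the family: it was called higher with magnolol at 4.17 ± 0.896 against 1.83 ± 0.0214 CPM (SD, n = 3 and 2), a call lost without any 1 of control 1, control 2, honokiol 1, honokiol 2, magnolol 1 or magnolol 2 (edgeR adjusted p = 0.0508, 0.0658, 0.0876, 0.368, 0.0878 and 0.204). With the rows of that symbol summed the difference was -0.29 (edgeR adjusted p = 0.247).

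**Figure D3:**
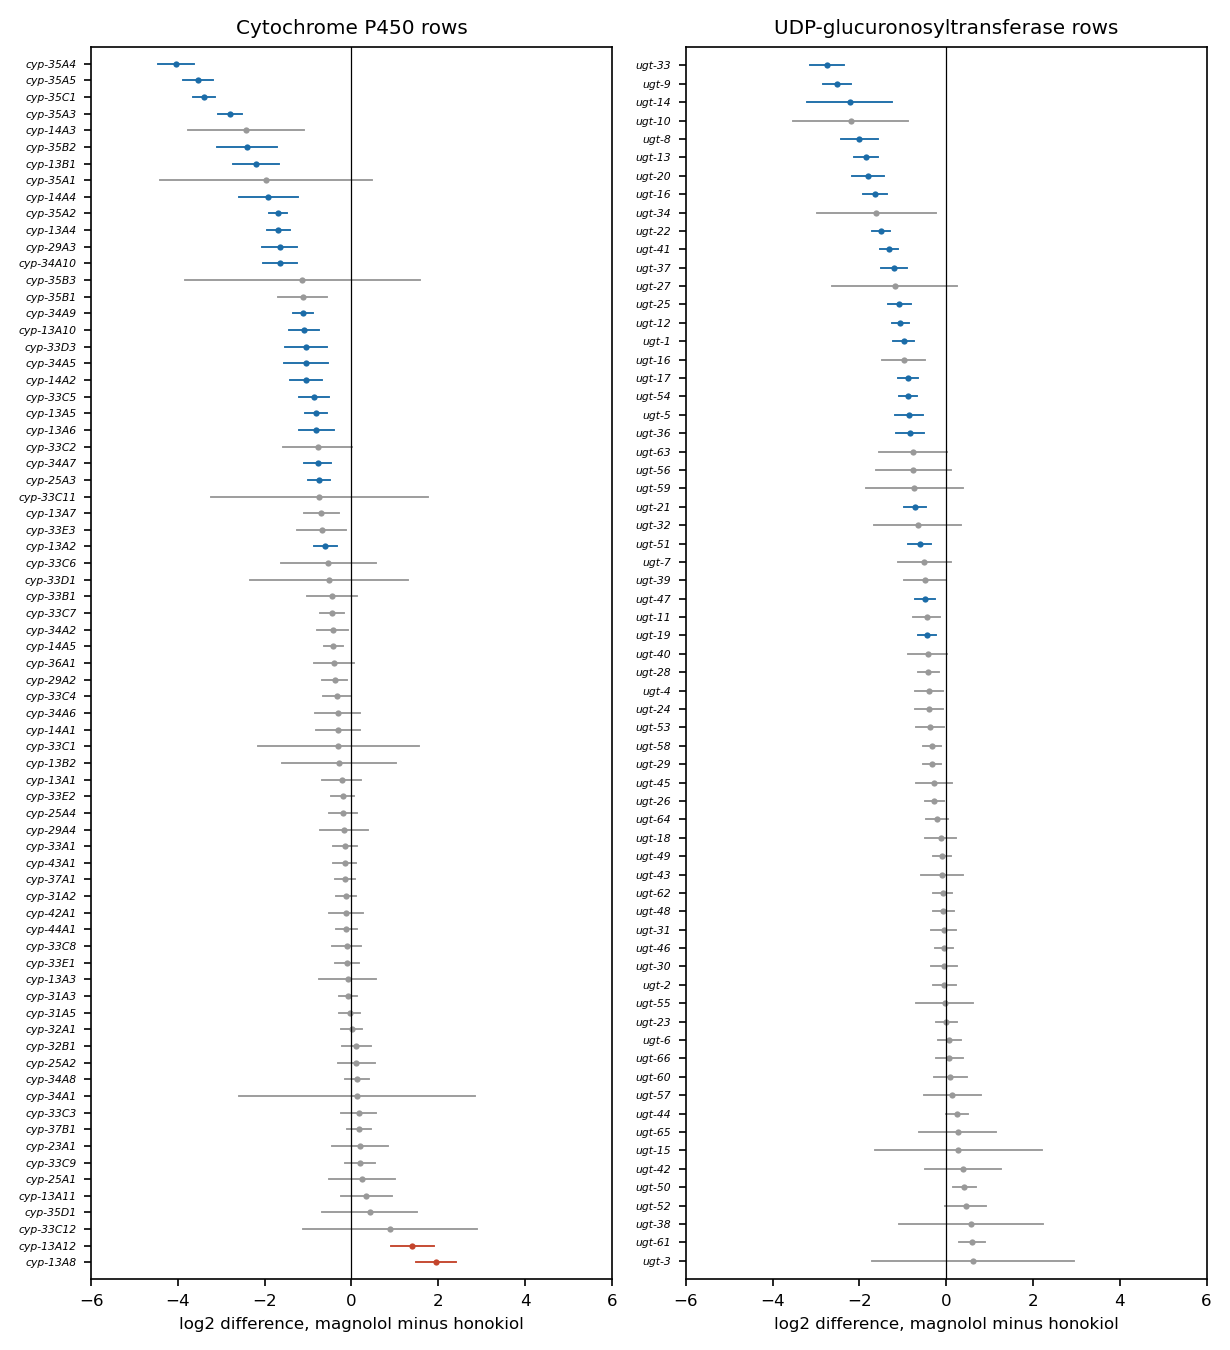
Log2 difference, magnolol minus honokiol, of each tested row of the P450 and UDP-glucuronosyltransferase families (points), with its 95% interval (lines, drawn to at most -6 and 6), called rows in colour and others in grey. In the left panel cyp-35A4 lies at the top and cyp-13A8 and cyp-13A12 at the bottom, on the magnolol side; in the right panel all 21 called rows lie on the honokiol side.

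UDP-glucuronosyltransferases, which attach sugars to small molecules, were called in 1 direction. Of 66 tested rows 21 were higher with honokiol (31.8%, against 1.24% of all rows), 0 were higher with magnolol and 45 were not called. At an unadjusted p under 0.05, 2 rows were higher with magnolol, and DESeq2 called 2 and limma-voom 1 in that direction. With magnolol 2 and honokiol 2 left out 14 rows were called higher with honokiol. The family median was -0.42, and the called differences ran from 1.36-fold to 6.8-fold. Controls lay below both isomers in 16 of the 21, overlapped magnolol in 4 and lay between the isomers in 1. Among all 209 rows called higher with honokiol these numbers were 126, 61 and 11.

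The largest difference was that of ugt-33, at 60.3 and 57.7 CPM in honokiol 1 and 2, 9.22, 7.21 and 9.73 CPM in magnolol 1 to 3 and 3.18, 5.65 and 4.17 CPM in controls 1 to 3. All magnolol libraries were above the controls and all honokiol libraries several times higher again, a difference of -2.76 ± 0.18 (edgeR adjusted p = 4.11e-07). On chromosome V, ugt-9 (4896048 to 4897969) was at 44.5 and 40.8 CPM in honokiol 1 and 2, 8.12, 6.05 and 8.03 CPM in magnolol 1 to 3 and 1.69, 1.61 and 1.89 CPM in controls 1 to 3, a difference of -2.52 ± 0.15. In the same stretch ugt-13 (4908884 to 4911399) was at 78.3 and 73.0 CPM in honokiol 1 and 2, 22.7, 19.6 and 20.8 CPM in magnolol 1 to 3 and 6.66, 7.50 and 5.49 CPM in controls 1 to 3, a difference of -1.85 ± 0.13. These neighbours had the same order of groups: control lowest, magnolol next, honokiol highest.

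Some more abundant members had smaller differences. The transcript of ugt-22 was at 269.5 and 283 CPM in honokiol 1 and 2, 96.1, 92.4 and 104 CPM in magnolol 1 to 3 and 73.6, 75.3 and 79.8 CPM in controls 1 to 3. Magnolol was only slightly above control there, and honokiol was 2.83-fold above magnolol (-1.50 ± 0.10, edgeR adjusted p = 3.20e-07). That of ugt-41 was at 247 and 263 CPM in honokiol 1 and 2, 98.5, 106 and 101 CPM in magnolol 1 to 3 and 28.6, 26.5 and 28.4 CPM in controls 1 to 3, a difference of -1.32 ± 0.09, with magnolol itself far above control.

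Glutathione S-transferases, which conjugate reactive compounds to glutathione, were called in 4 of 43 rows (9.3%), all higher with honokiol, and in 2 without honokiol 2. Over all rows tested 1.24% were called higher with honokiol. The transcript of gst-5 was at 112 and 129 CPM in honokiol 1 and 2, 47.0, 35.6 and 47.8 CPM in magnolol 1 to 3 and 23.7, 26.9 and 25.1 CPM in controls 1 to 3. The groups were in the order control, magnolol, honokiol without overlap, and the isomers differed by -1.47 ± 0.13 (edgeR adjusted p = 6.35e-06). The transcript of gst-21 was at 18.5 and 25.7 CPM in honokiol 1 and 2, 5.85, 6.63 and 4.84 CPM in magnolol 1 to 3 and 1.31, 0.863 and 1.69 CPM in controls 1 to 3, a difference of -1.94 ± 0.22. For gst-8, at 6.03 and 9.47 CPM in honokiol 1 and 2, 1.49, 0.451 and 1.02 CPM in magnolol 1 to 3 and 0, 0.178 and 0 CPM in controls 1 to 3, the difference of -2.96 ± 0.50 had edgeR adjusted p = 0.00416, which became 0.209 without honokiol 2 and 0.0980 in DESeq2. The fourth was gst-13 (-0.54 ± 0.13, edgeR adjusted p = 0.0438), lost without control 1 (0.0666), honokiol 1 (0.0523), honokiol 2 (0.431), magnolol 2 (0.136) or magnolol 3 (0.174).

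In a list of 27 genes of SKN-1, a regulator of the oxidative stress response, and of oxidative stress, 3 were called higher with honokiol (11.1%, against 1.24% of all rows tested) and 0 higher with magnolol, with a median of -0.15. At an unadjusted p under 0.05 these counts were 8 and 1, DESeq2 and limma-voom each called 3 and 0, and without honokiol 2 edgeR called 1 and 0. Besides gst-5 and gst-13 this was sdz-8 (-1.11 ± 0.21), whose edgeR adjusted p of 0.00973 became 0.330 without honokiol 2. The usual reporters did not pass. The transcript of gst-4 was at 37.5 and 38.5 CPM in honokiol 1 and 2, 30.2, 25.5 and 28.4 CPM in magnolol 1 to 3 and 34.2, 27.3 and 36.7 CPM in controls 1 to 3, a difference of -0.44 ± 0.13 (edgeR adjusted p = 0.119). That of gcs-1, the first enzyme of glutathione synthesis, stood at 157 and 146 CPM in honokiol 1 and 2, 148, 155 and 146 CPM in magnolol 1 to 3 and 155, 155 and 138 CPM in controls 1 to 3, with a 95% interval of -0.23 to 0.19 for its difference.

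The short-chain dehydrogenase gene dhs-23 was at 70.4 and 86.9 CPM in honokiol 1 and 2, 11.9, 6.79 and 11.3 CPM in magnolol 1 to 3 and 3.09, 2.80 and 3.04 CPM in controls 1 to 3. Magnolol was above control in all libraries and honokiol 7.85-fold above magnolol (-2.97 ± 0.18, edgeR adjusted p = 2.12e-07). The list of that family was drawn by symbol prefix, so members named otherwise are not in it. Among its 30 tested genes dhs-23 alone was called in edgeR (3.33%, against 1.24% of all rows tested), and the list median was -0.15. Carboxylesterases, which split esters, were called in 5 of 31 rows, in every case higher with honokiol and with the controls below both isomers, and the family median was -0.10. The most abundant of those 5, cest-33, was at 269 and 280.0 CPM in honokiol 1 and 2, 79.99, 79.9 and 81.4 CPM in magnolol 1 to 3 and 45.6, 54.8 and 43.8 CPM in controls 1 to 3, a difference of -1.77 ± 0.11. The widest gap among them was that of cest-35.2, at 25.9 and 30.3 CPM in honokiol 1 and 2, 6.27, 4.96 and 5.46 CPM in magnolol 1 to 3 and 1.40, 0.833 and 0.728 CPM in controls 1 to 3, a difference of -2.33 ± 0.20. The 5 calls were made with every single library left out.

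Among 41 O-acyltransferase genes 4 were called, again higher with honokiol (9.76%, against 1.24% of all rows tested), and the family median was -0.11. The transcript of oac-14 was at 785 and 809 CPM in honokiol 1 and 2, 373, 398 and 378 CPM in magnolol 1 to 3 and 60.3, 70.5 and 56.1 CPM in controls 1 to 3. Both isomers were far above control, and they differed by -1.06 ± 0.11 (edgeR adjusted p = 4.63e-05). The transcript of oac-40 was rarer, at 6.50 and 7.06 CPM in honokiol 1 and 2, 1.104, 1.09 and 0.339 CPM in magnolol 1 to 3 and 0.934, 0.744 and 0.728 CPM in controls 1 to 3. Magnolol overlapped the controls, and the isomer difference was -3.01 ± 0.38.

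**Figure D4:**
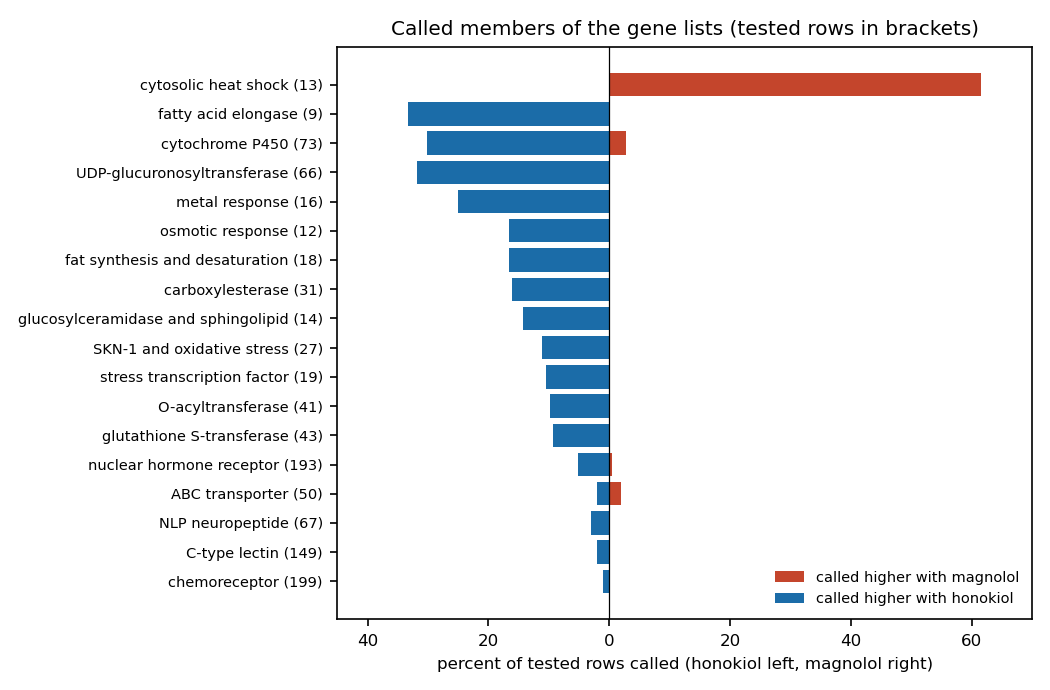
Percent of tested rows called higher with honokiol (blue, to the left) and higher with magnolol (red, to the right) in each gene list with at least 2 called rows, with the number of rows tested in brackets. The cytosolic heat shock list (8 of 13 rows) extends to the magnolol side, ABC transporters extend equally to either side, and P450s, UDP-glucuronosyltransferases and the other lists extend wholly or mostly to the honokiol side.

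The metal response list, of genes that respond to metals or carry and store them, had 4 of 16 rows called, all higher with honokiol (25%, against 1.24%). The cadmium-responsive gene cdr-1 stood at 19.6 and 21.7 CPM in honokiol 1 and 2, 4.51, 4.22 and 4.86 CPM in magnolol 1 to 3 and 1.14, 1.19 and 1.32 CPM in controls 1 to 3. Its magnolol libraries were above control and its honokiol libraries 4.55-fold above those (-2.19 ± 0.16, edgeR adjusted p = 1.38e-06). Its relative cdr-4 was at 130.2 and 134 CPM in honokiol 1 and 2, 85.4, 79.7 and 87.6 CPM in magnolol 1 to 3 and 31.6, 27.5 and 33.5 CPM in controls 1 to 3, a difference of -0.65 ± 0.10. Another relative, cdr-2, was not called: its isomer difference was 0.01, with an interval of -0.20 to 0.22, and it stood 1.33 ± 0.09 above control with magnolol and 1.32 ± 0.10 with honokiol. The 2 rows of numr-2, a nuclear protein gene induced by metals, are near-identical and count as 1 gene, and row gene11383 was at 10.15 and 10.6 CPM in honokiol 1 and 2, 3.40, 3.86 and 4.55 CPM in magnolol 1 to 3 and 2.39, 3.004 and 2.58 CPM in controls 1 to 3. The metallothionein genes mtl-1 and mtl-2 were not called, with intervals of -1.27 to 0.14 and -1.39 to -0.09. With magnolol 2 and honokiol 2 left out 1 row of the list, that of cdr-1, was called.

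Lipid genes differed in part. Of 9 fatty acid elongases 3 were called, all higher with honokiol (33.3%, against 1.24% of all rows tested). The transcript of elo-2, which extends palmitic acid, was at 91.2 and 82.7 CPM in honokiol 1 and 2, 44.6, 52.0 and 45.98 CPM in magnolol 1 to 3 and 39.2, 33.6 and 34.9 CPM in controls 1 to 3. Honokiol was above both other groups and magnolol above control, with an isomer difference of -0.87 ± 0.11 (edgeR adjusted p = 2.38e-04). Those of elo-5 and elo-6, which make branched-chain fatty acids and lie near each other on chromosome IV, differed by -0.76 ± 0.13 and -0.78 ± 0.12. Their controls overlapped magnolol. Without honokiol 2 the edgeR adjusted p of elo-5 was 0.0516. The desaturases fat-5, fat-6 and fat-7, which put the first double bond into a fatty acid, were not called, and the intervals of fat-6 and fat-7 were -0.29 to 0.19 and -0.35 to 0.10. That of fat-5 was -0.65 to -0.11 (edgeR adjusted p = 0.160). Its honokiol libraries were both above all magnolol libraries, as in 18.3% of all rows tested.

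Of 14 sphingolipid genes 2 were called, both higher with honokiol (14.3%, against 1.24% of all rows tested). Both encode glucosylceramidase homologs that adjoin each other on chromosome II. The transcript of gba-2 was at 58.9 and 56.2 CPM in honokiol 1 and 2, 12.2, 14.0 and 12.95 CPM in magnolol 1 to 3 and 1.34, 1.96 and 1.29 CPM in controls 1 to 3, a difference of -2.14 ± 0.14 or 4.41-fold (edgeR adjusted p = 3.87e-07). The groups were in the order control, magnolol, honokiol, with wide gaps. The transcript of gba-1 was more abundant and differed by -0.42 ± 0.09. That call was lost without control 1, honokiol 1, honokiol 2, magnolol 1, magnolol 2 or magnolol 3 (edgeR adjusted p = 0.0596, 0.0816, 0.166, 0.0581, 0.0806 and 0.165).

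Nuclear hormone receptors, transcription factors that bind small lipophilic ligands, were called in 11 of 193 rows, 10 higher with honokiol (5.18%, against 1.24% of all rows tested) and 1 higher with magnolol. The family median was -0.20. The transcript of nhr-237 was at 20.3 and 19.7 CPM in honokiol 1 and 2, 6.68, 5.70 and 6.45 CPM in magnolol 1 to 3 and 0.847, 0.922 and 0.992 CPM in controls 1 to 3. The 3 groups did not overlap, and the isomers differed by -1.67 ± 0.16 (edgeR adjusted p = 1.65e-05). The transcript of nhr-142 was at 42.3 and 48.2 CPM in honokiol 1 and 2, 16.44, 18.1 and 19.6 CPM in magnolol 1 to 3 and 6.31, 5.80 and 6.45 CPM in controls 1 to 3, a difference of -1.32 ± 0.12. The exception was nhr-210, at 31.4, 31.6 and 27.7 CPM in magnolol 1 to 3, 11.7 and 17.6 CPM in honokiol 1 and 2 and 3.30, 3.004 and 3.51 CPM in controls 1 to 3. Its magnolol libraries were all above its honokiol libraries, by 1.04 ± 0.17 (edgeR adjusted p = 0.00266), and this call was made with every single library left out. The count of 10 was 5 without honokiol 2, 6 without magnolol 3 and 3 with magnolol 2 and honokiol 2 left out, and 20 in DESeq2. The receptor nhr-8, which has a known part in resistance to foreign compounds, was not called (interval -0.13 to 0.29).

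Among 19 stress transcription factors 2 were called, both higher with honokiol (10.5%, against 1.24% of all rows tested), while the list median was 0.17 and 15 had a higher mean with magnolol. At an unadjusted p under 0.05, 6 were higher with magnolol and 2 higher with honokiol, and DESeq2 called 1 and 2. The STAT factor gene sta-2, which acts in the antimicrobial response of the epidermis, was at 65.8 and 59.6 CPM in honokiol 1 and 2, 40.7, 39.0 and 32.5 CPM in magnolol 1 to 3 and 37.2, 35.9 and 30.5 CPM in controls 1 to 3. Magnolol overlapped control, and the difference was -0.75 ± 0.12 (edgeR adjusted p = 0.00317). The zinc finger gene pqm-1 stood at 85.1 and 73.9 CPM in honokiol 1 and 2, 56.99, 53.7 and 53.6 CPM in magnolol 1 to 3 and 39.97, 36.3 and 33.4 CPM in controls 1 to 3, a difference of -0.54 ± 0.11. Its edgeR adjusted p of 0.0161 became 0.0812 without honokiol 1, 0.0503 without magnolol 2 and 0.0979 without magnolol 3. The genes of daf-16 and skn-1 were at 0.43 ± 0.12 and 0.39 ± 0.16 and were not called in edgeR, whereas DESeq2 called daf-16 (adjusted p = 0.0252).

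Of 67 neuropeptide-like genes 2 were called, both higher with honokiol (2.99%, against 1.24% of all rows tested), 1 without honokiol 2 or magnolol 3, 4 without honokiol 1 and 6 in DESeq2. The 2 were nlp-31 and nlp-29, which encode such peptides and are induced by fungal infection and wounding. The transcript of nlp-31 was at 27.6 and 31.9 CPM in honokiol 1 and 2, 13.8, 14.2 and 14.6 CPM in magnolol 1 to 3 and 18.2, 17.1 and 23.02 CPM in controls 1 to 3. Here the control lay between the isomers, below honokiol and above magnolol, and the difference of -1.06 ± 0.14 had edgeR adjusted p = 4.96e-04. That of nlp-29 was at 34.2 and 39.4 CPM in honokiol 1 and 2, 17.5, 24.9 and 19.8 CPM in magnolol 1 to 3 and 27.4, 26.5 and 33.4 CPM in controls 1 to 3, also with the control between, and differed by -0.83 ± 0.15. Its edgeR adjusted p of 0.00832 became 0.174 without honokiol 2, 0.0519 without magnolol 3 and 0.156 after a correction for exon length. Named after its values were seen, the caenacin gene cnc-4, the only 1 of 5 tested cnc genes to be called in edgeR, was at 45.8 and 55.3 CPM in honokiol 1 and 2, 22.2, 19.5 and 20.1 CPM in magnolol 1 to 3 and 17.5, 16.9 and 21.6 CPM in controls 1 to 3, a difference of -1.29 ± 0.13.

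ABC transporters gave 1 call in each direction among 50 rows (2% each, against 0.285% of all rows higher with magnolol and 1.24% higher with honokiol). In DESeq2 4 were called toward magnolol and 2 toward honokiol, the counts were 4 and 1 without honokiol 1, and a correction for exon length gave 1 and 5. The transcript of pgp-3, a P-glycoprotein, was at 71.7 and 73.9 CPM in honokiol 1 and 2, 42.1, 46.1 and 40.6 CPM in magnolol 1 to 3 and 32.9, 34.2 and 26.9 CPM in controls 1 to 3, a difference of -0.76 ± 0.11 (edgeR adjusted p = 0.00152), with magnolol between control and honokiol. The transcript of abt-4, of the ABCA subfamily, was at 287, 426 and 328 CPM in magnolol 1 to 3, 240.0 and 166 CPM in honokiol 1 and 2 and 58.6, 60.1 and 67.03 CPM in controls 1 to 3. Both isomers were above control and magnolol was higher, by 0.77 ± 0.17. Its edgeR adjusted p of 0.0337 became 0.0601 and 0.0627 without control 1 or 2, 0.522 without honokiol 2, 0.0998 without magnolol 2 and 0.0711 without magnolol 3. The P-glycoprotein gene pgp-1, at 947 and 662 CPM in honokiol 1 and 2, 658, 1005 and 761 CPM in magnolol 1 to 3 and 4.53, 4.58 and 3.97 CPM in controls 1 to 3, stood far above control with either isomer. Its isomer difference had a 95% interval of -0.36 to 0.37 and the 3 magnolol libraries overlapped the 2 honokiol libraries. Intervals of 47 of the 48 transporters not called lay within 2-fold.

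Some of the largest differences fell outside these families. With honokiol they included clec-206, which encodes a C-type lectin, at 10.1 and 8.58 CPM in honokiol 1 and 2, 0.537, 0.612 and 1.44 CPM in magnolol 1 to 3 and 0.847, 0.595 and 0.628 CPM in controls 1 to 3 (-3.42 ± 0.36, edgeR adjusted p = 4.54e-05). Also among them was E02C12.10, at 56.2 and 70.9 CPM in honokiol 1 and 2, 9.398, 8.82 and 9.08 CPM in magnolol 1 to 3 and 1.28, 1.34 and 0.761 CPM in controls 1 to 3 (-2.80 ± 0.16, edgeR adjusted p = 1.13e-07). Its neighbour E02C12.11 was at 2.91 and 4.93 CPM in honokiol 1 and 2, 0.239, 0.322 and 0.509 CPM in magnolol 1 to 3 and 0.0876, 0 and 0.0992 CPM in controls 1 to 3. That difference of -3.44 ± 0.55 had edgeR adjusted p = 0.00252, and 0.271 without honokiol 2. In a list of 11 genes named T16G1 and E02C12, drawn up after the values were seen, 5 were called (45.5%, against 1.24% of all rows tested), all higher with honokiol. Controls lay below both isomers in all 5, as in 126 of all 209 rows called higher with honokiol. The transcript of T16G1.6, named in the same way, was at 299 and 319.7 CPM in honokiol 1 and 2, 108, 135 and 123.5 CPM in magnolol 1 to 3 and 8.41, 8.66 and 8.40 CPM in controls 1 to 3, a difference of -1.34 ± 0.11.

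Rarer transcripts with a wide gap were Y46H3A.5, at 6.71 and 8.87 CPM in honokiol 1 and 2, 1.07, 0.741 and 1.22 CPM in magnolol 1 to 3 and 0.234, 1.25 and 0.529 CPM in controls 1 to 3 (-2.94 ± 0.43), and Y73C8C.10, at 5.43 and 4.15 CPM in honokiol 1 and 2, 0.985, 0.676 and 0.368 CPM in magnolol 1 to 3 and 0, 0 and 0 CPM in controls 1 to 3 (-2.82 ± 0.45). The second had 0 counts in all 3 control libraries, where 3 counts would be 0.0876 to 0.0992 CPM, and no fold against control is given for it. Of C-type lectins in all, 3 of 149 were called, a share of 2.01% against 1.24% of all rows, and 1 was called without honokiol 2 or magnolol 3.

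Among the largest differences in favour of magnolol outside the chaperones, F19B2.5 was at 64.5, 64.6 and 60.8 CPM in magnolol 1 to 3, 12.56 and 13.7 CPM in honokiol 1 and 2 and 16.6, 12.1 and 15.2 CPM in controls 1 to 3. Honokiol overlapped control and magnolol was 4.82-fold above honokiol (2.27 ± 0.14, edgeR adjusted p = 2.12e-07). The transcript of Y94H6A.10 was at 208, 173 and 197 CPM in magnolol 1 to 3, 50.7 and 51.9 CPM in honokiol 1 and 2 and 38.2, 37.8 and 43.7 CPM in controls 1 to 3, a difference of 1.91 ± 0.12 (edgeR adjusted p = 1.96e-07). Here honokiol was above the controls and magnolol far above both. An added locus with the symbol CBG06705 had another order, at 11.1, 11.6 and 8.91 CPM in magnolol 1 to 3, 1.96 and 1.87 CPM in honokiol 1 and 2 and 13.8, 7.38 and 13.8 CPM in controls 1 to 3. Magnolol overlapped control and honokiol lay below both, a difference of 2.46 ± 0.28 (edgeR adjusted p = 9.15e-05), or 1.32 with the rows of that symbol summed.

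The other calls in favour of magnolol were small, and they went with transcript length. Of the 48 rows, 31 differed by less than 2-fold. Of those 31, 27 had exons of at least the median summed length of all tested rows and 18 were in the longest of 10 equal classes by length, where 3 rows were called higher with honokiol. The median exon length was 2339 bases among rows higher with magnolol, 1362.5 among those higher with honokiol and 1335 over all rows tested. Across 14632 rows that were not called, the isomer difference and exon length had a Spearman rho of 0.46, given as a description over rows that share the same libraries. The median difference ran from -0.27 in the shortest class, with a median of 441 bases, to 0.29 in the longest, with a median of 3991 bases. The trend was steepest between magnolol 2 and honokiol 2 (-0.49 to 0.53), smallest between magnolol 1 and honokiol 1 (-0.04 to 0.05), and also present within groups, from -0.25 to 0.29 for magnolol 2 minus magnolol 1.

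**Figure D5:**
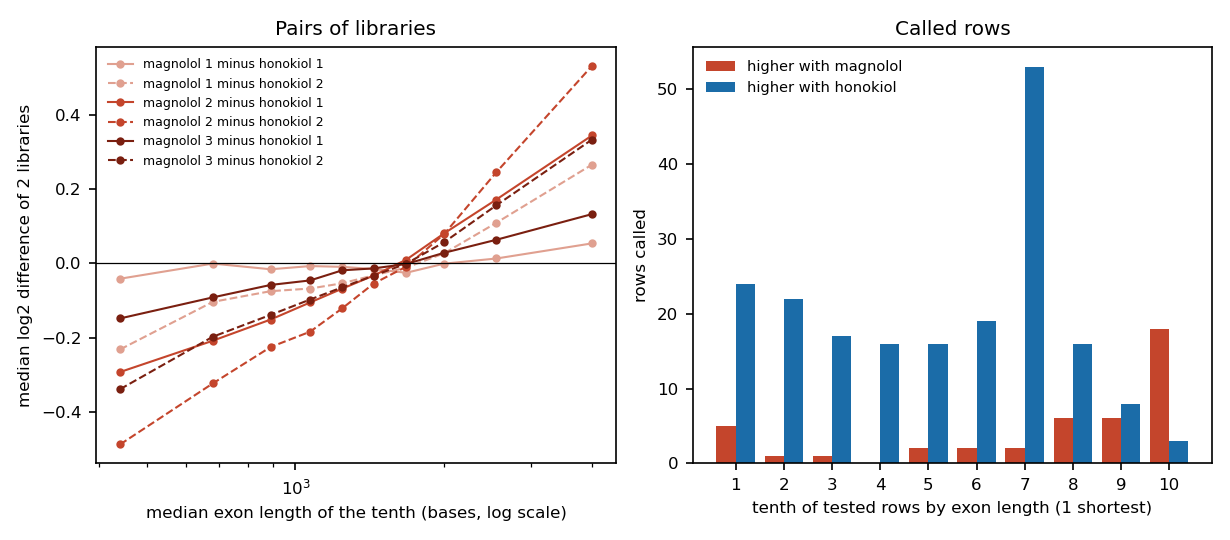
Left, median log2 difference of each pair of a magnolol and a honokiol library (lines) in 10 equal classes of the tested rows by summed exon length (x axis, bases, log scale). Right, number of rows called higher with magnolol (red) and with honokiol (blue) in each class: the longest class holds 18 and 3 rows.

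After each library was corrected for this trend, 27 of the 43 rows with an exon length that were higher with magnolol, and 175 of 194 that were higher with honokiol, were still called. Genes such as din-1, a nuclear receptor corepressor (0.76 ± 0.16), xrn-1, a ribonuclease (0.62 ± 0.14), and chs-2, a chitin synthase (0.60 ± 0.13), all named after their values were seen, were no longer called, at 0.29, 0.25 and 0.23 with edgeR adjusted p = 0.176, 0.21 and 0.365. Each of the 3 was also lost without honokiol 2, magnolol 2 or magnolol 3, with edgeR adjusted p from 0.0600 to 0.490 for din-1, from 0.0600 to 0.540 for xrn-1 and from 0.0723 to 0.446 for chs-2, and xrn-1 also without control 1 or 2 (0.0612 and 0.0530). Yolk protein genes were highest in magnolol 2 and lowest in honokiol 2. All 6 vitellogenins had a fitted difference of 0.68 to 0.77, and vit-2 was at 7800.4, 12359 and 8622 CPM in magnolol 1 to 3, 7455 and 4546 CPM in honokiol 1 and 2 and 7791, 6413 and 7464 CPM in controls 1 to 3. None was called in edgeR, DESeq2 or limma-voom, all 6 had an unadjusted p under 0.05, and vit-2 was called without honokiol 1 (adjusted p = 0.0186).

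Reporters of further stress responses were not called. The osmotic reporter gpdh-1 stood at 82.2 and 72.0 CPM in honokiol 1 and 2, 76.7, 70.9 and 80.5 CPM in magnolol 1 to 3 and 59.4, 52.6 and 49.1 CPM in controls 1 to 3. The intervals of the 2 isomers' difference were -0.26 to 0.22 for gpdh-1, -0.89 to 0.26 for the superoxide dismutase gene sod-3, -0.80 to 0.52 for the flavin monooxygenase gene fmo-2, -0.53 to 0.00 for the hypoxia and cyanide reporter cysl-2 and -0.61 to 0.07 for the immune reporter irg-1. Over all rows the precision was such that 12347 of 16556 rows not called (74.6%) had an interval within 2-fold, and the median half-width was 0.35, or 0.26 for the 9521 rows at 10 CPM or more. Of all rows tested, 2699 had an unadjusted p under 0.05, 1504 of them higher with magnolol and 1195 higher with honokiol.

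By chromosome, the rows higher with honokiol were most numerous on V. On chromosome V 97 of 3065 tested rows with a position were called higher with honokiol (3.16%), against 0.306% on I, 1.2% on II, 0.287% on III, 1.18% on IV and 1.19% on X. For rows higher with magnolol the numbers were 10 on V and 3 to 10 on the others. Called rows lying within 20000 bases of each other formed 27 runs holding 72 of 229 positioned calls, every run being of rows higher with honokiol. A symbol that stands on several rows was given no position. The called rows of F44E5.4, hsp-16.1 and hsp-16.48, higher with magnolol, and of numr-2 are therefore in neither these runs nor the chromosome counts. Neighbouring calls higher with magnolol could thus be missed, as at the paired hsp-16.1 and hsp-16.48 copies on chromosome V. The longest run, of 8 called among 15 tested rows, spanned V:3936326-3984847 and held cyp-35A5, cyp-35B2, 4 cyp-34A genes, nlp-31 and nlp-29. A run of 5 among 8 tested rows at V:4887165-4911399 held ugt-12, ugt-9, ugt-8, ugt-14 and ugt-13. On chromosome II, 4 of 5 tested rows at II:9783384-9802821 were the called cyp-13A2, cyp-13A4, cyp-13A5 and cyp-13A6. Of the genes in these runs, 6 lost their call without honokiol 2: cyp-34A5, cyp-34A7, nlp-29, ugt-14, cyp-13A2 and cyp-13A6 (edgeR adjusted p = 0.297, 0.258, 0.174, 0.139, 0.301 and 0.425). Each was also lost without magnolol 3 (edgeR adjusted p = 0.165, 0.0746, 0.0519, 0.0539, 0.114 and 0.114). Those of cyp-34A5, ugt-14, cyp-13A2 and cyp-13A6 were lost too without at least 1 of control 1, honokiol 1, magnolol 1 and magnolol 2. The families named above are themselves clustered in the genome, so these runs and the family counts are not separate results.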

How the data were processed

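Whole-worm RNA was sequenced in 8 libraries: 3 given magnolol, 2 given honokiol and 3 given DMSO. The authors deposited raw counts per gene row, and WBcel235 and DESeq2 are named in the submitters' processing notes with no role. Neither the labels nor the file header name the aligner, the counting program, the annotation release, the use of strand or the treatment of reads with several matches.

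Counts were tested with edgeR 4.0.16 in R 4.3.3: TMM scaling, filterByExpr with a minimum count of 10, group means over all 8 libraries, which share 1 estimate of spread (residual df 5, biological coefficient of variation 14.1%), and a quasi-likelihood contrast of magnolol against honokiol with Benjamini-Hochberg adjustment over 16813 rows. SE is the size of the difference over the square root of F, and intervals are 95%. CPM values use the TMM-scaled totals. DESeq2 1.42.0 and limma-voom (limma 3.58.1) were alternatives. Positions and exon lengths came from Ensembl release 115 by symbol (93.2% of gene-model rows with a symbol), and 3 of the 257 calls were added loci. The scripts were tested on simulated data.

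The comparison, its members and the gene lists were chosen with earlier results of these data known. Named genes are the 12 largest called differences per direction without overlap and at 1 CPM or more, up to 5 called members of each list with at least 2, members called against their list, and stress and detoxification reporters. Genes outside this rule are said to have been named after their values were seen; that holds too for F26G1.2, cut-2, mlt-10, hsp-12.3, hsp-17, cdr-2, cyp-35D1, emb-8 and the genes of the runs. The reporters hsp-16.2, hsp-16.11, hsp-16.49, F44E5.5, numr-1, nhr-57 and nhr-86 and promoter sequences were not analysed here.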

Additional observations from a re-analysis of the deposited data

How the results depend on the processing

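Counts of calls higher with magnolol and with honokiol were 48 and 209. They were 261 and 315 with no low-count filter, 314 and 319 in DESeq2, and 17 and 98 with a 2-fold minimum. Calls higher with magnolol numbered 90 in limma-voom and 18 at an adjusted p under 0.01. Leaving out 1 library in turn gave 15 to 321 and 112 to 253, and leaving out both magnolol 2 and honokiol 2, chosen after seeing the data, gave 13 and 78. With the replicate number as a block the counts were 16 and 147. Same-numbered libraries had deviations that correlated at -0.17 to 0.086, so the numbers were not taken to pair them. Under 20 alternatives, 11 of the 48 and 77 of the 209 rows were called in every one that gave a value. Genes with a difference near 0 changed sign and were called in none of those fits. Leaving out libraries gave -0.4167 to 0.2737 for pgp-1, -0.09268 to 0.01604 for gcs-1, -0.1164 to 0.08437 for fat-6, -0.1127 to 0.06371 for gpdh-1, -0.0315 to 0.1328 for hsp-4 and -0.3617 to 0.1073 for fmo-2. The exon length correction gave -0.2697 for pgp-1, 0.007876 for fat-6, 0.0172 for gpdh-1 and -0.03181 for hsp-4. For pgp-1, upper-quartile scaling gave -0.0129 and no filter -0.000074, and for gcs-1 the block gave 0.01861. Of the 257 called rows, the added locus with the symbol cyp-33C7 alone changed sign in any alternative, at -0.2913 with the rows of a symbol summed. The cause of these changes was not tested. With 2 honokiol libraries, leaving out 1 leaves a lone library that is assumed to vary like the other groups.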

Other observations

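Calls outside the gene families described above included transcripts with a large and steady difference, named here after their values were seen. Higher with honokiol were bigr-1, at 158 and 179 CPM in honokiol 1 and 2, 56.0, 54.2 and 52.9 CPM in magnolol 1 to 3 and 5.28, 8.42 and 8.57 CPM in controls 1 to 3 (-1.63 ± 0.14, edgeR adjusted p = 7.21e-06), and glo-3, known for its part in forming the lysosome-related granules of the gut, at 135 and 139 CPM in honokiol 1 and 2, 57.9, 68.3 and 56.0 CPM in magnolol 1 to 3 and 21.8, 14.9 and 15.5 CPM in controls 1 to 3 (-1.17 ± 0.14). The cation-transporting ATPase gene catp-3 was at 466 and 423 CPM in honokiol 1 and 2, 191, 221 and 206 CPM in magnolol 1 to 3 and 90.4, 88.3 and 76.1 CPM in controls 1 to 3 (-1.11 ± 0.11). In all of these the groups stood in the order control, magnolol, honokiol without overlap, and the calls were made with each single library left out.

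Lists of related genes drawn up after the values were seen added further calls. Of 55 transthyretin-related genes 5 were called, of 17 fungus-induced peptide related genes 3 and of 4 genes named C06E4 2, all higher with honokiol, against 1.24% of all rows tested. These counts were 0, 1 and 2 without honokiol 2, and 2, 1 and 2 without magnolol 2 or magnolol 3. The transthyretin-related count was 3 without control 1 and 8 without honokiol 1, and that of the fungus-induced peptides was 5 without control 3. In DESeq2 the transthyretin-related, fungus-induced and C06E4 counts were 8, 6 and 2. After the correction for exon length they were 3, 3 and 2. The transcript of fipr-22 was at 83.2 and 73.7 CPM in honokiol 1 and 2, 30.97, 24.2 and 29.9 CPM in magnolol 1 to 3 and 19.3, 21.4 and 14.1 CPM in controls 1 to 3 (-1.47 ± 0.15), with the 3 groups again in the order control, magnolol, honokiol without overlap.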
